A study of Mus musculus with 66 samples.

Results

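On mouse chromosome 1, 3 stretches carried listed islands of both H3K9me3 and H3K36me3 together with many input reads, and they are named here after the genes C130026I21Rik, Gm10553, Hjurp and Itln1. These 4 genes, of 55450 in the annotation, stood for 3 windows of the GRCm38 genome build. The first window, chr1:85000001-85400000, runs across Gm10553 and C130026I21Rik, the second, chr1:88200001-88300000, holds Hjurp, and the third, chr1:171500001-171600000, holds Itln1. The windows were chosen by measured values, the presence of islands of both marks and the input density. Their height in the windows is therefore given as a description and was not tested. Input reads were tested only for differences by treatment and by sex. All listed islands that touched a window were used, 2279 of 2049788 in all lists, of which 1511 lay in the first window, 382 in the Hjurp window and 386 in the Itln1 window. The rule set no numeric threshold on any measured value.

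The study asked whether binge-like dosing with ethanol in adolescence altered histone methylation in the prefrontal cortex. Male and female DBA/2J mice, an inbred strain, were given ethanol at 4 g/kg (25% w/v) or water by gavage between postnatal days 29 and 42, and the prefrontal cortex was dissected 24 h later. Each library was made from a pool of 3 mice, and the DNA of 8 technical precipitations of a pool was combined. There were 6 ethanol and 5 water pools per sex, which gave 66 samples, namely 22 H3K9me3, 22 H3K36me3 and 22 input libraries. Input is sonicated chromatin sequenced without precipitation. Both marks and the input were measured in bulk tissue, so a change in cell makeup and a change in the mark per cell cannot be told apart. DBA/2J reads were placed on the reference genome, which comes from another strain.

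H3K9me3 marks silent chromatin, including repeats and clusters of duplicated genes, while H3K36me3 is laid down along the bodies of transcribed genes. Input reads pile up where a genome holds more copies of a sequence than the reference does. C130026I21Rik and its neighbour A530032D15Rik belong to the Sp100 and Sp140 family of nuclear body proteins, which arose by local duplication, and Gm10553 is a predicted gene. Hjurp is the chaperone that loads the centromeric histone CENP-A, and Itln1 encodes intelectin 1, a lectin that binds microbial sugars.

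RefSeq promoters (GRCm38.p6, 250 bases before to 50 after the start) were found for 3 of the 4 members. That of A530032D15Rik is shown beside that of C130026I21Rik because the pair shows the repetition within the first window, and those of Hjurp and Itln1 because islands of both marks were rare over one and constant over the other. All 4 lie on the minus strand, at chr1:85270517-85270816 for C130026I21Rik, chr1:85109804-85110103 for A530032D15Rik, chr1:88277530-88277829 for Hjurp and chr1:171535245-171535544 for Itln1. They are written 5′ to 3′ with each CG dinucleotide in capitals.
C130026I21Rik: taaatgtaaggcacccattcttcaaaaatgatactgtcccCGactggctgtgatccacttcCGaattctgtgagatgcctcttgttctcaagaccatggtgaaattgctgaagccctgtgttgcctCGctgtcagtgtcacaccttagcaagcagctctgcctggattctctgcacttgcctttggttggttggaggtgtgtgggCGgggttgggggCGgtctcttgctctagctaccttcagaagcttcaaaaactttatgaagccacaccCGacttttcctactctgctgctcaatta
A530032D15Rik: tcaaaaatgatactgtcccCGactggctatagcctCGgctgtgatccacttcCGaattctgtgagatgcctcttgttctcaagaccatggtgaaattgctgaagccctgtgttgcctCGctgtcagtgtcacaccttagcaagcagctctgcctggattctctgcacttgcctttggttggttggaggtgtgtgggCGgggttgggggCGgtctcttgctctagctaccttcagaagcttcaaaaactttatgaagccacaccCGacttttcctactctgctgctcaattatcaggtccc
Hjurp: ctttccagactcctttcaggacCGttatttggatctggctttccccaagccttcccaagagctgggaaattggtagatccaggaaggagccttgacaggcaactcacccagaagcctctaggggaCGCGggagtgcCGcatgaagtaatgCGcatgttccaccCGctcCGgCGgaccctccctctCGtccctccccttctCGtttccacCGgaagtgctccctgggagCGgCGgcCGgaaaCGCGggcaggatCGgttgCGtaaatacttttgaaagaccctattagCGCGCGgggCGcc
Itln1: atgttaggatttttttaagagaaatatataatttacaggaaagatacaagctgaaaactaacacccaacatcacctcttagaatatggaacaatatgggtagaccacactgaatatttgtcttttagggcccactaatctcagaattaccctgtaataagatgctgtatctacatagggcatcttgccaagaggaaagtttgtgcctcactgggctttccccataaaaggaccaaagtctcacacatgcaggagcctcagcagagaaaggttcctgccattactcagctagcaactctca

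The C130026I21Rik and A530032D15Rik promoters matched at 275 of 309 aligned columns, an identity of 89.0%, while the other pairs of the 4 promoters ranged from 44.6 to 49.7%. The Hjurp promoter held 22 CG dinucleotides, and 23.1% of 32851 RefSeq promoters of this length held as many or more. C130026I21Rik held 6, A530032D15Rik 7 and Itln1 0, against a median of 7 over all promoters. The letters TATAAA, searched on both strands, were in none of the 4 and in 13.6% of all promoters. An H3K9me3 island lay over the Itln1 promoter in 22 of 22 libraries and over the Hjurp promoter in 5 of 22. H3K36me3 islands gave the same split, with 22 libraries for Itln1 and 5 for Hjurp. Over the C130026I21Rik and A530032D15Rik promoters, an H3K9me3 island was present in 22 libraries and an H3K36me3 island in 21. These counts use all listed islands. With islands of an FDR of at most 0.01 alone, H3K36me3 lay over C130026I21Rik in 17 libraries, A530032D15Rik in 8, Hjurp in 2 and Itln1 in 16. For H3K9me3 these counts were 22, 22, 4 and 18. Among these 4 promoters, that of Hjurp had the most CG dinucleotides and the fewest libraries with an island. The Hjurp and Itln1 promoters were shown for this contrast in islands, and a relation between CG content and the marks was not tested.

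The lists held 41364 to 72481 islands with 5.73 to 14.2 M ChIP reads for H3K9me3, 19618 to 61911 islands with 1.70 to 4.80 M ChIP reads for H3K36me3, and 4.15 to 5.68 M input reads inside the H3K9me3 islands. The library labelled male ethanol replicate 4 stood apart, with the most H3K9me3 reads and the fewest H3K36me3 reads. Without it, the mean input densities given further on became 1.27, 1.30 and 1.59 in the first, Hjurp and Itln1 windows, and the relative folds 1.48, 1.28 and 0.870 for H3K9me3 and 1.19, 1.165 and 1.08 for H3K36me3, a setting added after the data were seen. Brain markers did not serve as a check of the tissue, because 0 of 20 markers of neurons, oligodendrocytes, astrocytes and microglia and 0 of 5 markers of other tissues had an H3K36me3 island in all 22 libraries. Regions on X, whose copy number differs between the sexes, gave a scale. The input density of 1435 regions on X, relative to autosomes, was 0.810 ± 0.029 in males and 1.102 ± 0.042 in females (SD, n = 11 each), a ratio of 1.36. That ratio fell short of the difference in X copies between the sexes, and the reason was not tested.

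Both marks covered most of each window, and in much of it they covered the same bases. In the first window, H3K9me3 islands covered 77.0 ± 2.1% of the 200-bp bins, H3K36me3 islands 57.1 ± 7.0% and both marks 55.7 ± 6.4% (mean and SD, n = 22). In the Hjurp window these shares were 76.3 ± 3.0%, 70.9 ± 7.0% and 64.6 ± 6.2%. In the Itln1 window they were 56.7 ± 3.4%, 58.6 ± 4.9% and 50.1 ± 3.8%. Of the bins with H3K36me3, 97.6 ± 1.3% in the first window, 91.1 ± 3.3% in the Hjurp window and 85.7 ± 4.7% in the Itln1 window also lay in an H3K9me3 island, against 66.8 ± 7.6% over the whole genome. The reverse share, H3K9me3 bins that also had H3K36me3, was 72.4 ± 8.0%, 84.6 ± 8.1% and 88.6 ± 7.7%, against 39.6 ± 7.9% over the whole genome. The order of the windows was thus opposite for the 2 shares. As the windows were chosen for both marks, these differences from the genome were not tested.

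**Figure D1:**
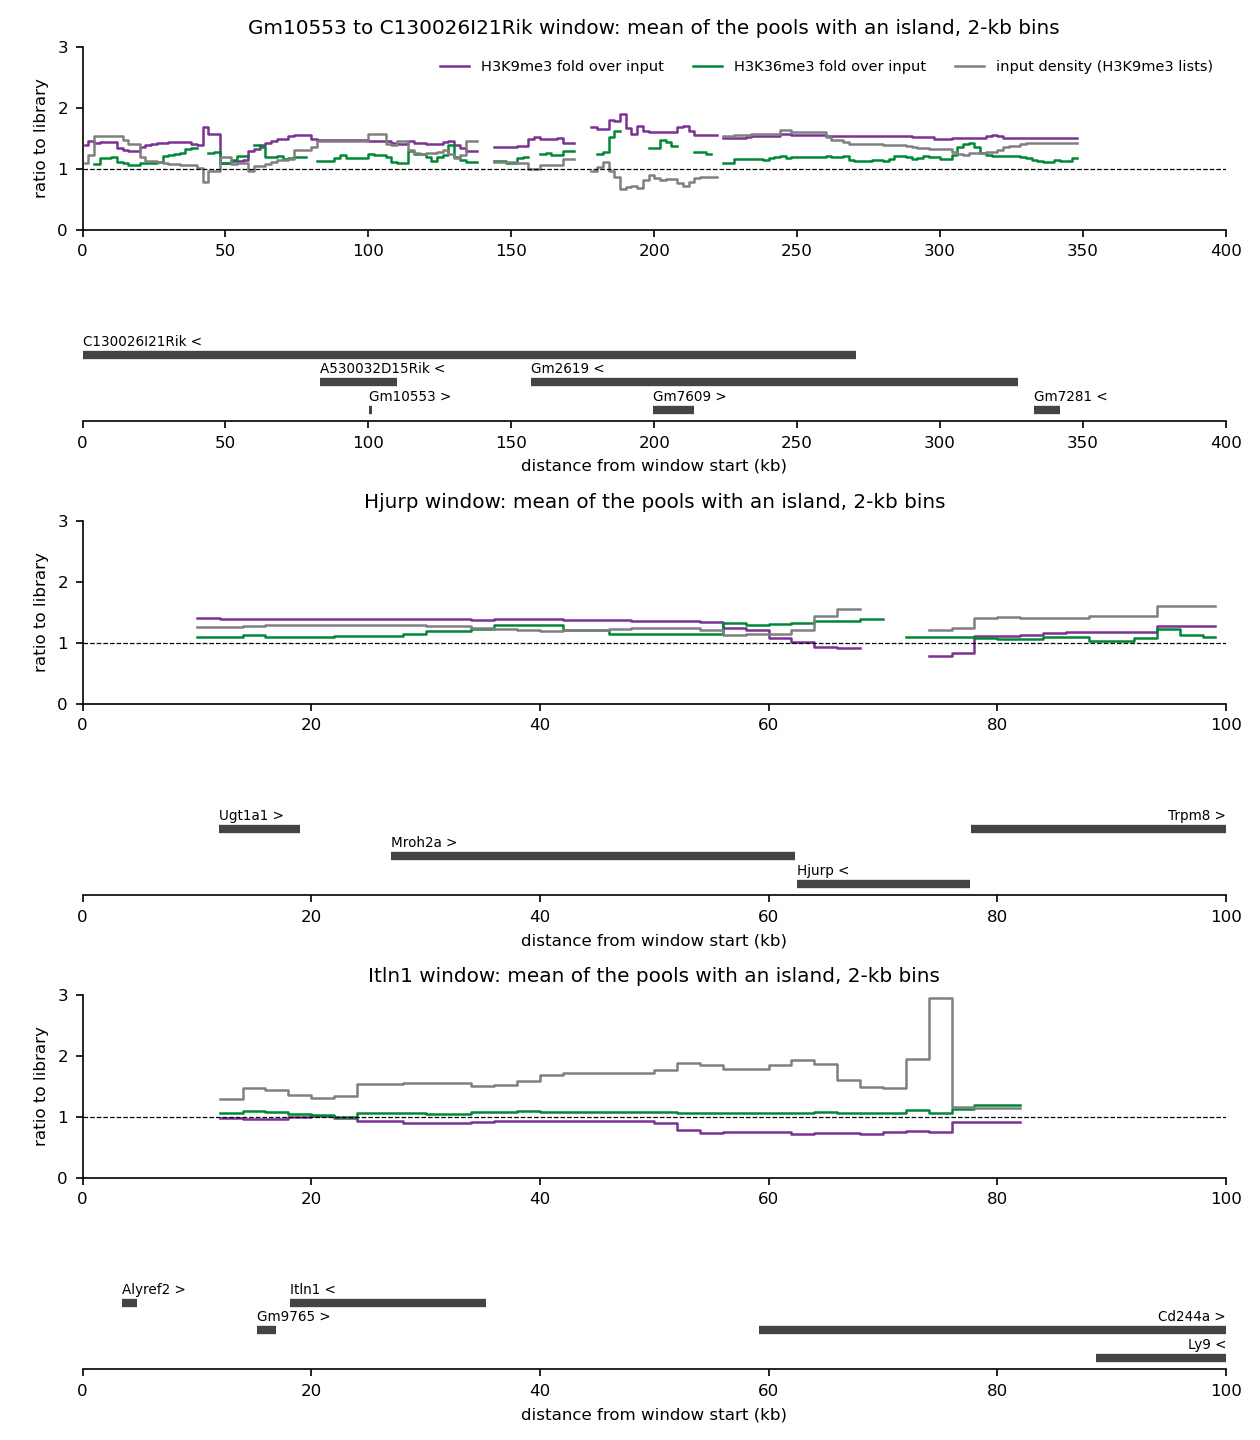
Fold over input of H3K9me3 and H3K36me3 and the input density, each relative to the library, in 2-kb bins along the 3 windows (x axis, kb from the window start), with genes drawn as bars and their strand as arrows. Values are means over the libraries with an island in the bin, and input density in the first window ran from 0.668 at 189 kb to 1.64 at 247 kb, whereas 1 bin of the Itln1 window, at 75 kb, reached 2.95.

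The reference sequence was repetitive in the first window, and in the other windows hardly at all. In the first window 294 alignments between duplicated segments of at least 2000 bases covered 341 kb, or 98.3% of its sequenced bases, when the window was compared with itself and 500 kb on either side. Only 52.1% of its 150-base tiles, taken over its 400 kb, had a single best place in the genome. Each of 192 shorter windows of chromosome 1, of 100 kb, had a higher share, with a lowest value of 54.3% and a median of 96.7%. An assembly gap of 52897 bases began at position 85347104, and no island region reached past it. In the Hjurp window no segment was duplicated and 99.3% of tiles were unique. In the Itln1 window 3 segments covered 5.78 kb and 94.3% of tiles were unique, although within the Itln1 gene the share was 70.9%. The bodies of C130026I21Rik and Hjurp had 50.6% and 99.3% unique tiles. The description of these loci as repeated therefore held in the reference for the first window, for a small portion of the Itln1 window and not for the Hjurp window.

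Input density in H3K9me3 islands was above the library median in each window and each pool, and highest in the Itln1 window. It is the number of input reads per kb inside the H3K9me3 islands of a window, divided by the median of the same number over all islands of that library. Over the 22 pools it was 1.27 ± 0.07 in the first window (range 1.13 to 1.44), 1.31 ± 0.11 in the Hjurp window (1.08 to 1.56) and 1.60 ± 0.11 in the Itln1 window (1.36 to 1.87). On average 81.7, 83.3 and 94.0% of a library's islands had a lower density. The Itln1 window was the highest of the 3 in 22 of 22 pools. The first window was the lowest in 16 pools and the Hjurp window in 6, so those neighbours in the order lay within their spread.

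By group, the first window read 1.35, 1.25, 1.31, 1.18 and 1.19 in the male water pools and 1.28, 1.13, 1.26, 1.38 and 1.31 in the female water pools. Its lowest, median and highest values were 1.21, 1.26 and 1.44 in the male ethanol pools and 1.24, 1.27 and 1.33 in the female ethanol pools. All 4 groups overlapped. The Hjurp window read 1.43, 1.33, 1.37, 1.26 and 1.204 in male water and 1.24, 1.08, 1.29, 1.51 and 1.37 in female water. It read 1.199, 1.29 and 1.56 in male ethanol and 1.17, 1.27 and 1.38 in female ethanol (lowest, median, highest). The female water pools spanned the widest range here, from the lowest value of all pools, in replicate 2, to 1.51 in replicate 4. The Itln1 window read 1.61, 1.58, 1.65, 1.53 and 1.51 in male water and 1.55, 1.36, 1.63, 1.67 and 1.63 in female water. It read 1.47, 1.58 and 1.87 in male ethanol and 1.49, 1.65 and 1.78 in female ethanol. The highest value came from male ethanol replicate 4, and the groups again overlapped.

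**Figure D2:**
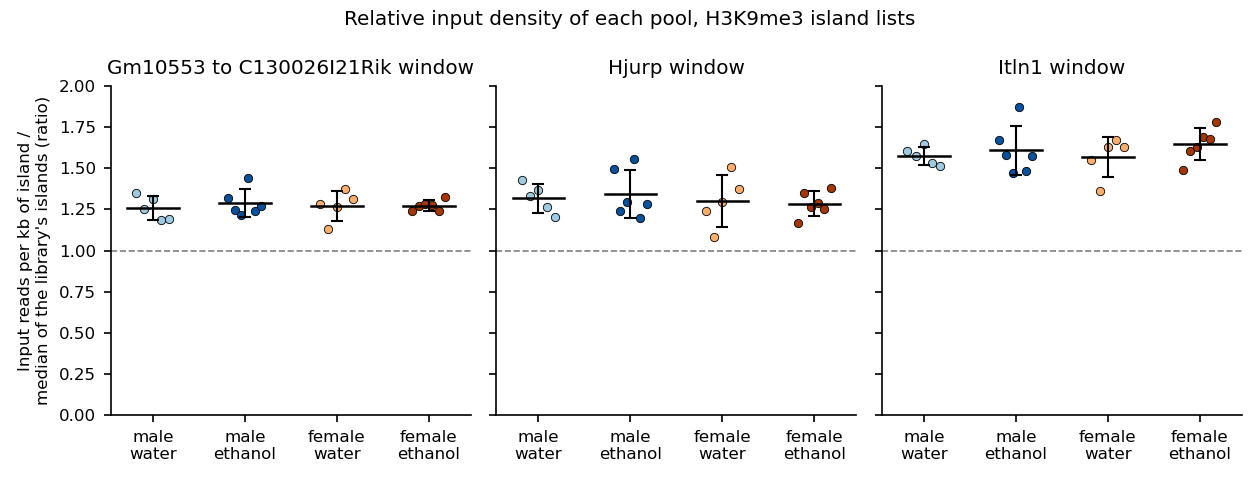
Relative input density (y axis, input reads per kb of H3K9me3 islands over the library median, dashed line at 1) of the 3 windows in each pool, with the mean as a horizontal line and the SD as bars for each group of sex and treatment. All 22 pools sit above 1 in each window, and the Itln1 window is the highest, at 1.60 ± 0.11.

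Elsewhere in the genome such densities were found in a minority of long H3K9me3 regions. Of 648 autosomal H3K9me3 regions of 10 kb or more, the median density was 0.918 and the 90th percentile 1.44. The 333 of these outside the windows that also had H3K36me3 had a median of 1.06 and a 90th percentile of 1.97. The longest region of each window, called its lead region, ranked by density 66 of 648 in the first window, 110 in the Hjurp window and 56 in the Itln1 window. On chromosome 8, a stretch that holds alpha-defensin genes reached 3.09 ± 0.17, and the bodies of Tdpoz and Obox genes, other duplicated families, had 0.81 ± 0.02 (SD, n = 22). The windows therefore lay between those 2 repeated gene groups.

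Density also varied within each window. In the first window the region chr1:85187801-85195800, inside C130026I21Rik and Gm2619, had the lowest density, 0.523, while chr1:85080001-85106400, across A530032D15Rik and Gm10553, had 1.45. In the Hjurp window the lead region had 1.19, the region chr1:88263801-88267800 over Hjurp itself 1.24, and 2 regions inside Trpm8, a cold-sensing ion channel gene, 1.37 and 1.59. In the Itln1 window the lead region had 1.52, the next, chr1:171553201-171565000, 1.70, and the short region chr1:171574401-171575800 in Cd244a, a receptor of the SLAM family on natural killer cells, 1.91. The highest density therefore did not lie over Hjurp or Itln1 in either of their windows.

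When H3K9me3 was set against this input, the order of the windows turned around. The relative fold is the ratio of ChIP to input reads in a window's islands over the same ratio of all islands of that library. For H3K9me3 it was 1.48 ± 0.06 in the first window, 1.27 ± 0.10 in the Hjurp window and 0.863 ± 0.084 in the Itln1 window (SD, n = 22). The first window was the highest in 21 of 22 pools and the Itln1 window the lowest in 22, with a value above 1 in 2 pools. On the scale of the authors' own fold, which does not divide by the library's islands, the values were 2.04 ± 0.14, 1.75 ± 0.09 and 1.19 ± 0.05. The Itln1 lead region ranked 635 of 648 long autosomal regions by H3K9me3 fold, and chr1:171553201-171565000 ranked 644, at 0.739.

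For H3K36me3 the windows lay closer together. Its relative fold was 1.18 ± 0.10 in the first window, 1.15 ± 0.15 in the Hjurp window and 1.07 ± 0.13 in the Itln1 window, and exceeded 1 in 20, 19 and 15 of 22 pools. The Itln1 window was the lowest in 18 pools. The Hjurp lead region of this mark, chr1:88235601-88269200, ranked 9 of 107 long autosomal H3K36me3 regions by fold, at 1.24, but 101 of 107 by input density, at 0.848. The lead regions of the first window and Itln1 ranked 39 and 58 by density, at 1.53 and 1.34, against a median of 1.37 over the 107. Inside the H3K36me3 islands of the whole windows the density relative to the library median was 1.28 ± 0.09, 1.17 ± 0.14 and 1.39 ± 0.11 (SD, n = 22), and exceeded 1 in 22, 21 and 22 pools. With islands of an FDR of at most 0.01 alone, in the windows and in the library's reference ratio, the H3K36me3 folds were 0.882, 0.878 and 0.791. They were thus below 1 in all 3 windows, and the cause of this shift was not tested.

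The H3K9me3 fold was highest in the first window, then in the Hjurp window, then in the Itln1 window in 21 of 22 pools, and in female water replicate 2 the Hjurp window was the highest. In the male water pools it was 1.41, 1.55, 1.47, 1.48 and 1.65 in the first window, and in the female water pools 1.37, 1.57, 1.45, 1.49 and 1.37. The Hjurp window gave 1.14, 1.33, 1.22, 1.23 and 1.45 in male water and 1.23, 1.60, 1.23, 1.24 and 1.12 in female water. The Itln1 window gave 0.82, 0.88, 0.84, 0.86 and 0.93 in male water and 0.88, 1.12, 0.81, 0.91 and 0.81 in female water. Female water replicate 2, the pool with the fewest H3K9me3 islands at an FDR of at most 0.01 (12804), was the highest of the female water pools in all 3 windows, and the part of this in the values was not tested. In the ethanol pools the lowest and highest values were 1.44 and 1.52 for males and 1.41 and 1.49 for females in the first window, with medians of 1.51 and 1.47. They were 1.16 and 1.33 for males and 1.17 and 1.35 for females in the Hjurp window, and 0.732 and 1.00 for males and 0.783 and 0.916 for females in the Itln1 window. The ethanol and water pools overlapped in each window and sex.

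**Figure D3:**
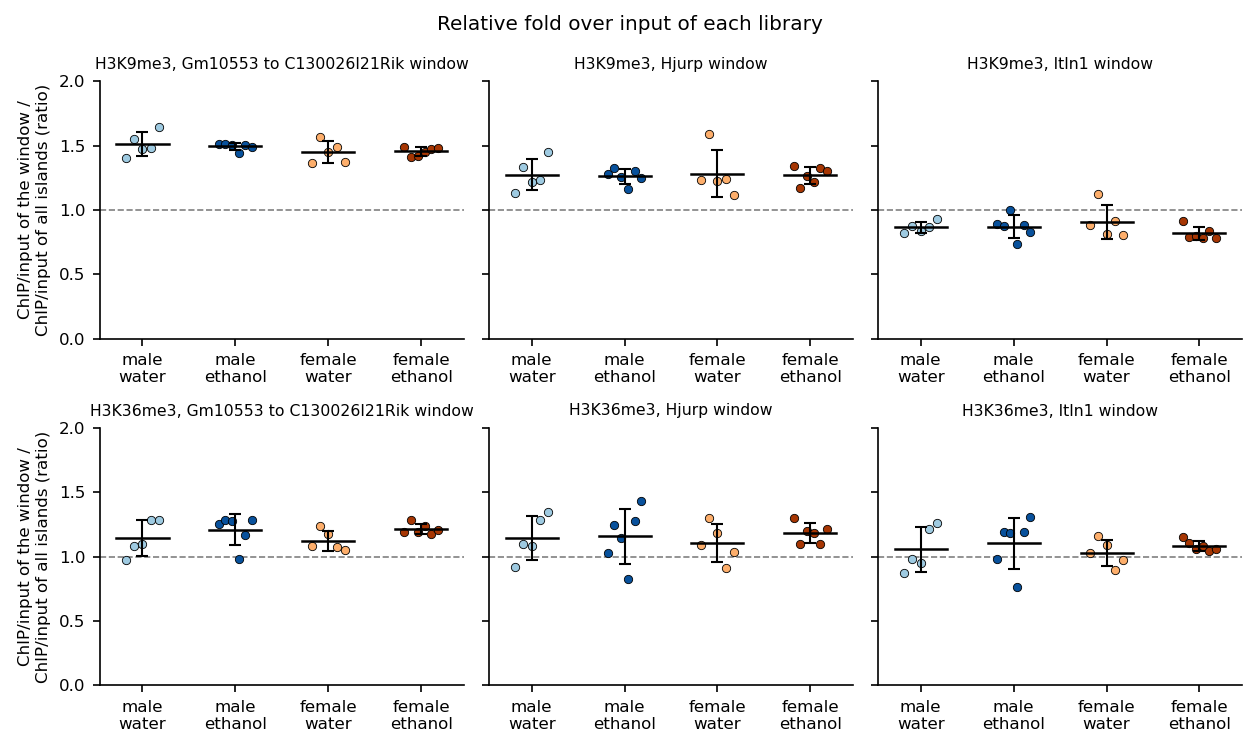
Relative fold over input (y axis, ChIP over input reads in the islands of a window divided by the same ratio of all islands, dashed line at 1) for H3K9me3 and H3K36me3 in each pool, with group means as lines and SD as bars. For H3K9me3 the first window lies at 1.48 ± 0.06 and the Itln1 window at 0.863 ± 0.084, and for H3K36me3 the 3 windows overlap.

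Listed islands of both marks covered most of the C130026I21Rik and Itln1 bodies, while by median H3K36me3 covered more of Hjurp than H3K9me3 did. In the Itln1 window, 108 of 232 H3K9me3 and 76 of 154 H3K36me3 islands, over all libraries, had an FDR of at most 0.01. Levels are CPM, ChIP counts scaled to the total reads of the library in islands, summed over the overlapping islands by the overlapped share, per kb of body. Each mark is scaled to its own island reads, so the marks are not compared by level. Since C130026I21Rik (ENSMUSG00000052477.15, chr1:84992690-85270566, minus strand) spans 277.9 kb and contains Gm10553 and A530032D15Rik, these genes share islands. Its level was 6.95 ± 0.91 for H3K9me3 and 6.49 ± 1.12 for H3K36me3 (SD, n = 22), and islands covered a median of 85.2 and 60.1% of it. Itln1 (chr1:171518122-171535294, minus strand) had 5.20 ± 0.88 and 8.09 ± 1.31, with 83.7 and 84.9% covered. Hjurp (chr1:88262471-88277633, minus strand) had 2.23 ± 1.27 and 5.88 ± 1.38, with 38.7 and 66.1% covered. Its neighbour Mroh2a, which ends just before it, had 7.10 and 7.52, with 96.0 and 86.4% covered.

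For H3K9me3 the level of C130026I21Rik was 6.84, 7.67, 7.41, 6.98 and 7.59 in male water and 6.09, 7.91, 6.19, 8.87 and 6.07 in female water, and ran from 6.51 over a median of 6.69 to 9.19 in male ethanol and from 5.83 over 6.19 to 6.97 in female ethanol. For H3K36me3 it was 5.75, 6.05, 6.82, 7.10 and 6.65 in male water and 4.86, 5.42, 5.52, 8.54 and 5.40 in female water, with 5.43, 7.14 and 8.89 in male ethanol and 4.87, 6.65 and 7.24 in female ethanol (lowest, median, highest). The groups overlapped for both marks.

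The H3K9me3 level of Hjurp varied more between pools, relative to its mean, than those of C130026I21Rik and Itln1. Its H3K9me3 level was 1.99, 3.58, 2.58, 1.70 and 3.49 in male water and 2.55, 4.38, 1.13, 6.16 and 1.67 in female water. It ran from 1.197 over a median of 1.70 to 3.38 in male ethanol and from 1.01 over 1.36 to 1.76 in female ethanol. Both ethanol groups had the lower mean, 1.93 ± 0.80 against 2.67 ± 0.85 in males and 1.38 ± 0.30 against 3.18 ± 2.08 in females, with overlapping values. Its H3K36me3 level was 4.16, 6.53, 8.00, 7.11 and 6.31 in male water and 3.13, 6.55, 5.28, 7.07 and 5.63 in female water. In male ethanol it ran from 4.28 over 6.54 to 7.44, and in female ethanol from 3.39 over 5.26 to 7.43. For H3K36me3 the 4 groups lay within one range.

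Itln1 had the highest mean H3K36me3 level of the 3 longer named genes, but this level is not divided by input. Set against input, the H3K36me3 relative fold of the Itln1 window was the lowest of the 3 windows in 18 of 22 pools. For this mark the level of Itln1 was 6.83, 8.91, 9.27, 9.06 and 8.92 in male water and 5.96, 7.31, 7.38, 9.43 and 7.55 in female water, with 7.07, 7.71 and 10.61 in male ethanol and 6.04, 8.18 and 9.85 in female ethanol. For H3K9me3 it was 5.39, 6.08, 5.40, 4.88 and 5.58 in male water and 4.80, 6.36, 4.07, 6.97 and 4.55 in female water, with 4.60, 5.06 and 6.88 in male ethanol and 3.81, 4.58 and 5.48 in female ethanol. The female ethanol pools had the lowest H3K9me3 mean, 4.57 ± 0.64, inside the range of the other groups.

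Gm10553 (chr1:85100164-85100535, plus strand) is 372 bases long, and its island calls turned on a gap of the island lists. An H3K9me3 island lay over it in 14 of 22 libraries and an H3K36me3 island in 9 of 22. In each of the 8 H3K9me3 libraries without one, an island ended at 85100000 and the next began at 85100601, so the gene fell in a gap of 600 bases between 2 islands. In each of the 13 H3K36me3 libraries without one, islands ended between 85099800 and 85100000 and began again between 85100601 and 85101401. Where present, the level was 8.64 to 12.2 for H3K9me3 and 10.3 to 17 for H3K36me3. The H3K36me3 island was present in 0 of 5 male water, 4 of 6 male ethanol, 3 of 5 female water and 2 of 6 female ethanol libraries. Presence or absence of an island at Gm10553 was therefore a matter of a few 200-bp bins, and 50% of the 4 tiles of the gene were unique in the reference.

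**Figure D4:**
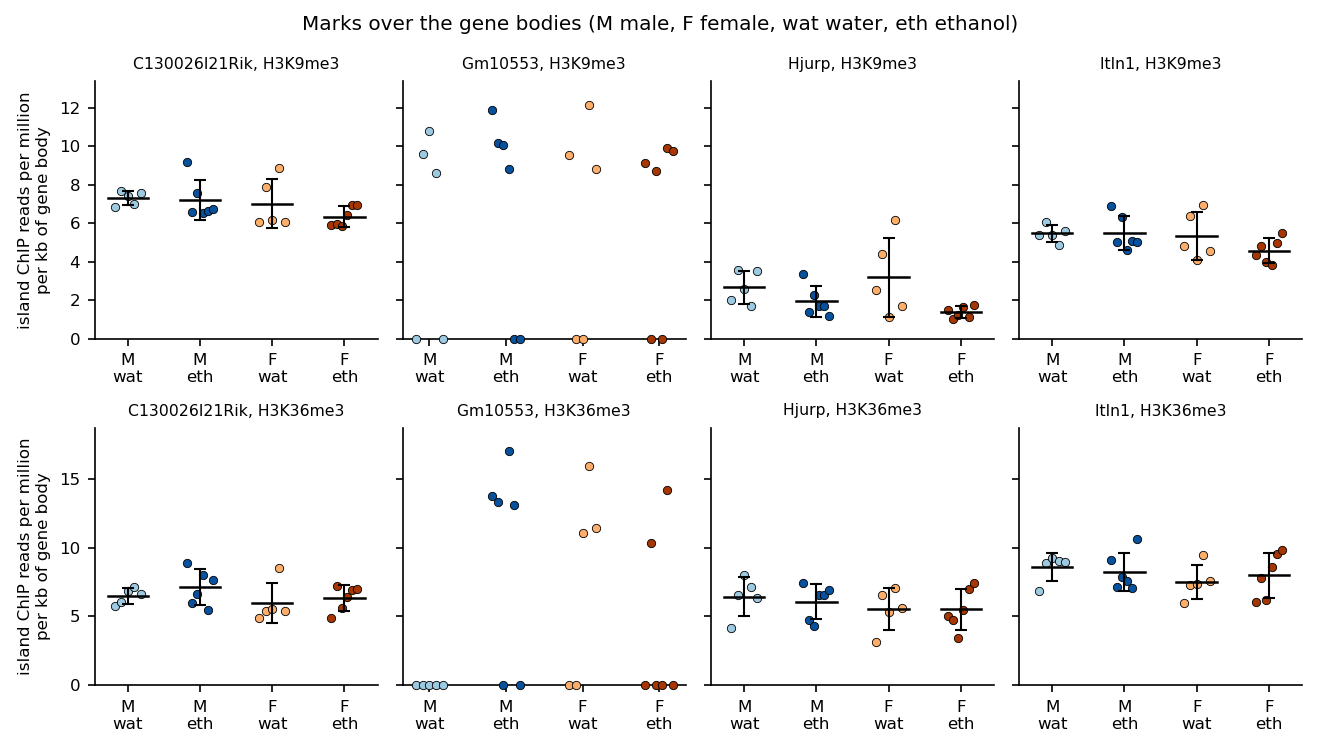
Levels of H3K9me3 and H3K36me3 (y axis, CPM per kb of gene body) over the 4 named genes in each pool by sex and treatment, with group means as lines and SD as bars, and points alone for Gm10553, where 0 stands for no island over the gene. Hjurp has the lowest H3K9me3 level, 2.23 ± 1.27, and the H3K9me3 and H3K36me3 values of each gene overlap between groups.

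Many neighbours had listed islands of both marks as well. In the first window, 13 of 17 annotated genes had islands of both marks in all 22 libraries, and of the 3 protein-coding ones these were C130026I21Rik and A530032D15Rik. In the Hjurp window 13 of 14 genes did, among them the Ugt1a genes, which encode enzymes that attach glucuronic acid to bilirubin and drugs and share their last exons. Dnajb3, a chaperone gene nested there, had no island of either mark. In the Itln1 window 3 of 8 genes had both marks in all libraries and 4 had no H3K9me3 island in any. One of those 4 was Ly9, a SLAM family receptor of lymphocytes.

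By the pattern of input density across the 22 pools, the genes most like the first window among 1113 protein-coding autosomal genes with both marks were Zfp97, Nell2 and Hecw2. Their Euclidean distances on log2 density were 0.41, 0.41 and 0.43, and their median densities 1.26, 1.26 and 1.26. Those most like the Hjurp window were Zfp990, Tnfrsf23 and Nell2, at distances of 0.35, 0.52 and 0.57. Those most like the Itln1 window were Zfp981, Ugt3a1 and Gm21083, at 0.50, 0.72 and 0.73, with median densities of 1.70, 1.52 and 1.63. Zfp97, Zfp990 and Zfp981 are zinc finger genes. This list was ranked by likeness in level and across pools at once and was not tested.

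Whether ethanol altered H3K9me3 at these loci was tested in each sex on ChIP counts, which the choice of the windows did not use by treatment. The first window held 20 H3K9me3 and 42 H3K36me3 regions, the Hjurp window 5 and 6, and the Itln1 window 11 and 4. A region was tested where each library of the comparison had an island, which left out regions present in part of the libraries. In males, 1 of 31 window regions, the one over Hjurp itself, had an unadjusted p of 0.05 or lower, the threshold used in the study, against 2.90% of all 27957 regions, and none passed after adjustment. Its H3K9me3 level, in CPM, was 27.5, 44.7, 31.1, 24.5 and 42.3 in the water pools and ran from 17.6 over a median of 23.6 to 32.9 in the ethanol pools. The means were 34.0 ± 9.02 (SD, n = 5) and 24.2 ± 5.75 (SD, n = 6), and the groups overlapped. The region, chr1:88263801-88267800, covers 2858 of the 8331 exon bases of Hjurp. Its log2 fold change was -0.50 ± 0.18 (SE), past the unadjusted threshold of 0.05, with an adjusted p = 0.999 in edgeR's quasi-likelihood test with Benjamini-Hochberg adjustment over all regions. In females the same region had 33.6 ± 13.01 CPM in water and 26.1 ± 5.2 in ethanol pools, a log2 fold change of -0.36 ± 0.22 (SE), which did not pass the threshold. Without male water replicate 2, the pool with the highest value, the male change was -0.39 and did not pass. The input counts of this region had log2 fold changes of -0.03 in males and -0.12 in females.

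Of the 31 H3K9me3 regions tested in males, 11 were higher and 20 lower after ethanol, with a median log2 fold change of -0.01 against -0.00063 over all regions. No region of the genome passed an adjusted p of 0.05 in edgeR, where 811 had an unadjusted p of 0.05 or lower, and DESeq2 called 8 after adjustment. The lead regions differed by less than their errors in males. That of the first window, chr1:85224001-85316200, had 1320, 1335, 1354, 1200.4 and 1364 CPM in water and 1193, 1269 and 1525 (lowest, median, highest) in ethanol pools, a log2 fold change of -0.02 ± 0.08 (SE). Those of Hjurp, chr1:88210201-88263400, and Itln1, chr1:171523001-171552600, had log2 fold changes of -0.0034 ± 0.10 and -0.02 ± 0.09.

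In females the H3K9me3 call lay in Cd244a, beside Itln1. The region chr1:171576801-171581600 had 28.4, 38.3, 18.8, 41.7 and 24.7 CPM in the water pools and 13.6, 21.4 and 29.6 (lowest, median, highest) in the ethanol pools, with means of 30.4 ± 9.52 (SD, n = 5) and 21.1 ± 6.02 (SD, n = 6). The log2 fold change was -0.52 ± 0.23 (SE), past the unadjusted threshold, with adjusted p = 0.999 in edgeR's quasi-likelihood test with Benjamini-Hochberg adjustment. The input counts of the same region were 30.3 ± 8.11 CPM in water and 23.7 ± 6.79 in ethanol pools, a log2 fold change of -0.35 ± 0.21 (SE), which did not pass. As ChIP over input, tested with limma, the change was -0.15 and did not pass. The call was lost without female water replicate 2 (-0.42) or 4 (-0.38), or female ethanol replicate 1 (-0.42), 2 (-0.44) or 6 (-0.52). It was 1 of 28 window regions called, against 3.99% of all 27241 regions. Of the 28, 5 were higher and 23 lower, with a median of -0.07 against 0.0044 over all regions. No region of the genome passed the adjusted threshold in edgeR, 1088 had an unadjusted p of 0.05 or lower, and DESeq2 called 2 after adjustment. The female lead regions had log2 fold changes of -0.04 ± 0.08 (SE) in the first window, -0.10 ± 0.10 in the Hjurp window and -0.16 ± 0.10 in the Itln1 window.

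H3K36me3 in the windows leaned lower after ethanol in males and higher in females. In males 4 of 35 tested regions were higher and 31 lower, with a median log2 fold change of -0.09 against 0.0069 over all 7532 regions. None had a p of 0.05 or lower, against 5.71% of all regions. Across the genome 0 regions passed the adjusted threshold in edgeR, 430 had an unadjusted p of 0.05 or lower, and DESeq2 called 3 after adjustment. All 4 regions of the Hjurp window and all 3 of the Itln1 window were lower, with medians of -0.11 and -0.18. The male lead regions had log2 fold changes of -0.09 ± 0.10 (SE) in the first window (chr1:85228401-85260400), -0.20 ± 0.13 in the Hjurp window (chr1:88235601-88269200) and -0.12 ± 0.13 in the Itln1 window (chr1:171524201-171570200). With islands of an FDR of at most 0.01 alone, where 61 regions could be tested, that of the first window turned to 0.113, and its interaction with sex to -0.0710. Neighbouring regions share pools, so their common direction is a description of these libraries.

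In females, 28 of 39 regions were higher and 11 lower, with a median of 0.11 against 0.000935 over all 9018 regions. All 4 regions of the Hjurp window and all 4 of the Itln1 window were higher, with medians of 0.10 and 0.20. One region had a p of 0.05 or lower, against 3.61% of all regions, where 326 were called, 0 after adjustment in edgeR and 0 in DESeq2. It was chr1:85308801-85316000 in Gm2619, a long predicted gene of the first window. It had 105.5, 127.1, 109.6, 114.6 and 120.9 CPM in the water pools and 79.3, 161.6 and 179.4 (lowest, median, highest) in the ethanol pools, where 5 of the 6 pools lay above each water pool and replicate 6 was below them all. The log2 fold change was 0.37 ± 0.17 (SE), past the unadjusted threshold, with adjusted p = 0.996 in edgeR's quasi-likelihood test with Benjamini-Hochberg adjustment. The call was lost in 9 of the 11 fits that left out 1 pool, in which the change ranged from 0.32 to 0.50, and as ChIP over input it was 0.037 in limma and did not pass.

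The Itln1 lead region separated the female groups. Its H3K36me3 level was 956.9, 1104.7, 1044.2, 1025.7 and 1070.9 CPM in the water pools and 1120.6, 1154 and 1200.5 (lowest, median, highest) in the ethanol pools, so each ethanol pool was above each water pool. The means were 1040.5 ± 55 and 1153 ± 31, and the log2 fold change was 0.15 ± 0.09 (SE). This was 1 of the 39 window regions without overlap between groups, against 0.466% of all regions. The edgeR quasi-likelihood test, which shares information on the spread across regions, gave a Benjamini-Hochberg adjusted p = 0.996 and no call at the unadjusted threshold, which DESeq2 did pass. In males the values of this region overlapped, at 1255 ± 88 CPM in water and 1154 ± 177 in ethanol pools. The first window and Hjurp lead regions had log2 fold changes of 0.11 ± 0.09 and 0.18 ± 0.13 (SE) in females. At the Hjurp lead region, female water replicate 2 was the highest water pool, and without it the change was 0.32 and passed the unadjusted threshold in edgeR.

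**Figure D5:**
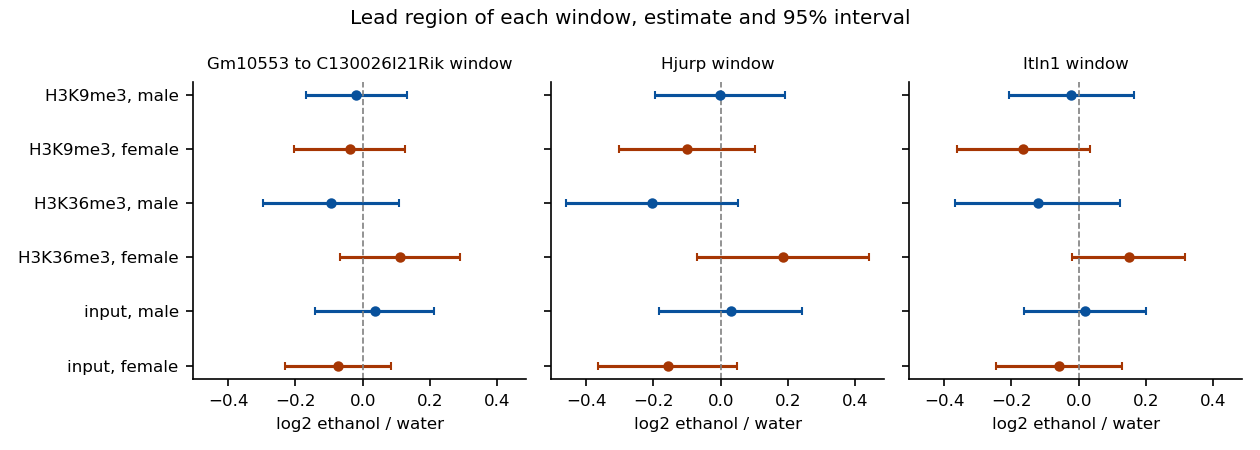
Log2 fold change after ethanol (x axis, ethanol over water) of the lead regions of the 3 windows for H3K9me3, H3K36me3 and input in each sex, as points with 95% intervals and a dashed line at 0. All intervals cross 0, and for H3K36me3 the 3 male points lie below 0 and the 3 female points above it, although the male point of the first window turned to 0.113 with islands of an FDR of at most 0.01 alone.

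Whether the ethanol response differed between the sexes was tested as an interaction, the female minus the male log2 change, in regions where each of the 22 libraries had an island. For H3K36me3, 4 of 34 window regions had a p of 0.05 or lower, against 5.94% of all 5760 regions, and 28 of the 34 were positive with a median of 0.24 against -0.0032 over all. One was the Hjurp lead region, with a level of 831 ± 93 CPM in male water, 719 ± 115 in male ethanol, 638 ± 135 in female water and 726 ± 73 in female ethanol pools. Its interaction was 0.40 ± 0.19 (SE), past the unadjusted threshold, with adjusted p = 0.821 in edgeR's quasi-likelihood test with Benjamini-Hochberg adjustment. The male water pools read 680.7, 846.7, 932.3, 868.2 and 826.4 and the female water pools 532.5, 865.8, 641.1, 548.0 and 600.8, so the water groups lay further apart than the ethanol groups. The call was lost in 15 of the 22 fits without 1 pool, with a range from 0.34 to 0.53.

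The other 3 H3K36me3 interactions lay in the first window. The Gm2619 region chr1:85308801-85316000 had 177 ± 9 and 151 ± 23 CPM in males and 139 ± 11 and 181 ± 43 in females (water, then ethanol, SD), an interaction of 0.61 ± 0.21 (SE) with adjusted p = 0.798 in the edgeR test. It kept its call in all 22 fits without 1 pool, from 0.56 to 0.74, and as ChIP over input it was 0.31 in limma and did not pass. The region chr1:85089601-85100000 over A530032D15Rik had 388 ± 47 and 340 ± 26 CPM in males and 341 ± 39 and 381 ± 37 in females, an interaction of 0.35 ± 0.15. The region chr1:85132001-85137200 in C130026I21Rik had 135 ± 8 and 122 ± 26 in males and 106 ± 24 and 132 ± 11 in females, an interaction of 0.45 ± 0.21. Their adjusted p were 0.798 and 0.821 in edgeR's test, and their calls were lost in 6 and 13 of the 22 fits without 1 pool. Across the genome 0 of 5760 regions passed the adjusted threshold in edgeR, 342 had an unadjusted p of 0.05 or lower, and DESeq2 called 2 after adjustment.

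For H3K9me3, 1 of 28 window regions had an interaction p of 0.05 or lower, against 3.61% of all 22077 regions. It was again the Cd244a region chr1:171576801-171581600, which had 27.3 ± 5.1 and 32.6 ± 5.5 CPM in male water and ethanol pools and 33.6 ± 10.8 and 23.3 ± 6.7 in female water and ethanol pools. The interaction was -0.77 ± 0.28 (SE), past the unadjusted threshold, with adjusted p = 1.00 in edgeR's quasi-likelihood test with Benjamini-Hochberg adjustment, and it held without each pool in turn, from -0.91 to -0.63. As ChIP over input it was -0.17 in limma and did not pass. Of the 28, 6 were positive and 22 negative, with a median of -0.07 against 0.0074 over all. Across the genome 0 regions passed the adjusted threshold in edgeR, 798 had an unadjusted p of 0.05 or lower, and DESeq2 called 0 after adjustment.

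The input reads themselves, tested in the same H3K9me3 regions, gave 0 called of 31 window regions in males, against 3.47% of all 27937 regions, and 1 of 28 in females, against 4.02% of 27036. The female region was chr1:85179001-85187000 in C130026I21Rik, with 51.2 ± 7.9 CPM (44.1 to 60.3) in water and 43.9 ± 2.3 (39.7 to 46.7) in ethanol pools, a log2 fold change of -0.22 ± 0.10 (SE), past the unadjusted threshold, with adjusted p = 0.999 in edgeR's quasi-likelihood test with Benjamini-Hochberg adjustment. This call was lost without female water replicate 4 (-0.16) or 5 (-0.16), or female ethanol replicate 1 (-0.19), 2 (-0.22), 4 (-0.22) or 6 (-0.22). In females 6 window regions were higher and 22 lower, with a median of -0.06, and in males 20 were higher and 11 lower, with a median of 0.03. The female H3K9me3 and input medians thus leaned the same way, while the male medians did not. No input region passed the adjusted threshold in edgeR, where 970 in males and 1086 in females had an unadjusted p of 0.05 or lower, and DESeq2 called 0 and 2 after adjustment.

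Between males and females, no window region passed the adjusted threshold for either mark or for input. For H3K9me3, 0 of 28 window regions were called by sex, against 5.68% of 20569 autosomal regions by the unadjusted threshold and 0.219% after adjustment. With regions on the sex chromosomes, whose copy number differs, these shares were 10.2% and 4.28% of 22077. For H3K36me3, 2 of 34 were called and 0 after adjustment, against 4.30% and 0.0185% of 5399 autosomal regions (5.83% and 0.538% of all 5760). Both were lower in females and lay in the first window: chr1:85329401-85347000, across the non-coding gene Gm16025 and the pseudogene Gm7281, at 482 to 484 CPM on average in the female groups and 536 to 554 in the male groups, changed by -0.18 ± 0.07 (SE), and chr1:85021401-85027000 by -0.37 ± 0.18. Their adjusted p were 0.738 and 0.842 in edgeR's quasi-likelihood test with Benjamini-Hochberg adjustment. The first lost its call without female water replicate 1 (-0.15) and the second in 15 of 22 fits without 1 pool. For input, 2 of 28 were called and 0 after adjustment, against 5.07% and 0.194% of 20569 autosomal regions (9.11% and 3.67% of all 22077). These were chr1:85058401-85079800, at -0.12 ± 0.06, and the Cd244a region chr1:171574401-171575800, at 0.33 ± 0.15, with adjusted p of 0.512 and 0.453 in edgeR. The input of the 3 H3K9me3 lead regions had female minus male log2 differences of -0.02, -0.06 and -0.02.

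Genes related to the named ones were counted as lists, each of which also holds genes of the windows. Of 9 annotated genes of the Sp100 family list, which act in nuclear bodies and the interferon response, 8 had H3K9me3 and 7 had H3K36me3 islands in all 22 libraries. Of the 9, C130026I21Rik, A530032D15Rik, Gm10553 and Gm7609 lie in the first window, so their islands were part of how it was chosen. For H3K36me3, 1 of 33 regions of this list was called lower after ethanol in males and 1 of 35 higher in females, against 5.71% and 3.61% of all regions called in either direction, with medians of -0.09 and 0.10. In both cases the call was the same Sp100 region, which changed by -0.48 in males and 0.59 in females, an interaction of 1.07 with adjusted p = 0.468 in edgeR. Among 32 list regions, 3 were called by interaction, against 5.94% of all regions, and apart from the Sp100 region they were those in A530032D15Rik and C130026I21Rik described above. For H3K9me3, 0 of 33 and 0 of 31 list regions were called in males and females, against 2.90% and 3.99%. By sex, 1 of 31 H3K9me3 regions, in Sp110, changed by -0.13, against 5.68% of autosomal regions called, and 2 of 32 H3K36me3 regions were called, against 4.30%, namely 1 in Sp140 at -0.26 and 1 in C130026I21Rik, chr1:85021401-85027000.

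Of 12 genes of CENP-A loading, Hjurp alone had H3K36me3 islands in all 22 libraries, and Hjurp also had H3K9me3 islands in all 22. In 9 of the 12 no library had an H3K9me3 island. Of 10 annotated intelectin and SLAM genes, Itln1 and Cd244a alone had both marks in all 22 libraries, and 5 had no H3K9me3 island in any. For H3K36me3, 0 of 3 regions in males and 0 of 4 in females were called in this list, against 5.71% and 3.61% of all regions, with medians of -0.18 and 0.20. For H3K9me3, 0 of 8 were called in males and 1 of 6 in females, against 2.90% and 3.99%, 1 of 6 by interaction, against 3.61%, and 1 of 6 for input by sex, against 5.07% of autosomal regions, all in Cd244a. In the CENP-A list 1 of 3 H3K9me3 regions was called in males and 0 of 3 in females, against 2.90% and 3.99% of all regions. The 1 H3K36me3 region tested was called by interaction alone, against 5.94%. These calls are the Hjurp and Cd244a regions already described.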

How the data were processed

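Chromatin of 22 pools was precipitated for H3K9me3 and H3K36me3, and the same pools gave the input libraries. For H3K9me3 the authors trimmed 150-bp single-end reads with Cutadapt, aligned them to GRCm38 with Bowtie2 2.4.1, discarded blacklisted reads and those with more than 1 location, and ran SICER on each precipitated library with its own input (200-bp windows, 400-bp gap). For H3K36me3 the gap was 600 bp, while aligner and filters are not given in the sources used. The deposited lists give whole-number counts of ChIP and input reads per island, not normalized. They also hold the authors' p-value and FDR (q-value) for ChIP over scaled input, and the authors' fold ratio, which is ChIP over input reads divided by 1 constant per library. Islands of identical boundaries in both marks had equal input counts, so both marks of a pool shared 1 input. Reads that fell outside islands were not used here, so depth is known inside islands alone.

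Groups came from the sample titles. The members, the windows and the gene lists were chosen with earlier results of these data known. Named are the 4 member genes, all genes and the longest region of each mark in a window, regions past the threshold, and the 3 genes most like each window. Regions were stretches covered by listed islands of at least 11 of 22 libraries, and their counts were ChIP reads of overlapping islands, apportioned by length and rounded. Tests took the regions with an island in each of the 11 libraries of a sex, or in each of 22 for sex and interaction. Counts were scaled by TMM, filtered with filterByExpr and tested over all regions with edgeR 4.0.16 (quasi-likelihood test) in R 4.3.3, by treatment within each sex, by sex, and for the interaction, with Benjamini-Hochberg adjustment. As in the study, p of 0.05 was the threshold. The SE of an edgeR change was derived as its absolute size over the square root of the test's F statistic. The 95% intervals reach 1.96 SE to either side. Alternatives were DESeq2 1.42.0, no filter, limma 3.58.1 on log2 ChIP over input (pseudocount 1), only islands at an FDR of 0.01 or below, the replicate number as a block, and leaving out each pool. Tests were tried on simulated data. Duplicated segments and unique tiles (150 bases every 50, mapping quality of 10 or more) came from minimap2 2.31, and genes from GENCODE vM21.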

Additional observations from a re-analysis of the deposited data

Results flagged for a closer look

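Of 72 groups of 5 or 6 pools checked, 7 held 1 pool far from the others of its group, and chance gives about 1 in 20 groups. For H3K9me3 fold over input, male ethanol replicate 4 was low in the first window (1.44, the next pool being at 1.49), and female water replicate 2 was high in the Hjurp window (1.60, next 1.24). For the H3K9me3 level of the first window's lead region, male water replicate 4 was low (1200.4 CPM, next 1320) and male ethanol replicate 1 was high (1525 CPM, next 1300.3). That male ethanol pool was also the highest for input reads in the same region (1000.3 CPM, next 861). Female water replicate 4 was the highest for input reads over both the Hjurp lead region (567 CPM, next 408) and the Itln1 lead region (356 CPM, next 288).

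By the interaction test of edgeR, 1 of 28 H3K9me3 and 4 of 34 H3K36me3 window regions had an unadjusted p of 0.05 or lower for a difference between the sexes in the change after ethanol, against 3.61% and 5.94% of all regions, and none passed after Benjamini-Hochberg adjustment. The female minus male log2 differences were -0.77 for H3K9me3 at chr1:171576801-171581600 in Cd244a, and for H3K36me3 0.35 at chr1:85089601-85100000, 0.45 at chr1:85132001-85137200, 0.61 at chr1:85308801-85316000 and 0.40 at the Hjurp lead region, chr1:88235601-88269200.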

How the results depend on the processing

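With islands of an FDR of at most 0.01 alone, fewer regions could be tested, and the regions with p of 0.05 or lower numbered 280 in males and 200 in females for H3K9me3, 4 and 5 for H3K36me3, and 315 and 231 for input. By sex they numbered 569 for H3K9me3, 8 for H3K36me3 and 530 for input, and by interaction 107 for H3K9me3 and 1 for H3K36me3. As ChIP over input in limma, 1521 H3K9me3 regions were called by treatment in males and 1333 by sex. The reference of islands with an FDR of at most 0.01 gave input densities of 1.37 in the first window and 1.73 in the Itln1 window, and the H3K36me3 lists gave 1.17 in the Hjurp window and 1.39 in the Itln1 window. Fold over input with islands of an FDR of at most 0.01 was 1.27 in the first window and 1.11 in the Hjurp window for H3K9me3, and 0.882, 0.878 and 0.791 in the 3 windows for H3K36me3. The cause of these shifts was not tested.

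Some small differences at lead regions turned around. With such islands alone, log2 differences were 0.0265 (Hjurp, H3K9me3, male treatment), 0.0164 (Hjurp, H3K9me3, sex), 0.113 (first window, H3K36me3, male treatment), -0.0346 (Itln1, input, male treatment) and -0.0710 (first window, H3K36me3, interaction). As ChIP over input, those of the first window and Hjurp were 0.0411 and 0.0572 for H3K9me3 in females, 0.0934 and 0.0850 for its interaction, and 0.0635 and 0.0193 for H3K36me3 by sex. That of Hjurp was 0.0473 for H3K9me3 by sex, and that of chr1:85021401-85027000 for H3K36me3 by sex was 0.0055. The cause was not tested.

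The replicate numbers did not pair the pools: none of 30 correlations between same-numbered pools exceeded 0.1 (range -0.117 to 0.0757). With the replicate number as a block, counts of called regions stayed within 1.5 times, for example 813 for H3K9me3 in males and 297 for H3K36me3 in females. The H3K9me3 lead regions of Hjurp and Itln1 in males became 0.0197 and 0.0084, and the H3K9me3 calls at chr1:88263801-88267800 in males (-0.50) and chr1:171576801-171581600 in females (-0.52) were lost.

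Leaving out 1 pool at a time gave log2 ranges that crossed 0 at lead regions of the first window, Hjurp and Itln1. For H3K9me3 in males they were -0.0686 to 0.0056, -0.0904 to 0.0332 and -0.105 to 0.0169, and in females -0.0804 to 0.0401 in the first window and -0.148 to 0.0050 in the Hjurp window. By sex, H3K9me3 gave -0.0573 to 0.0416 in the Hjurp window and -0.0558 to 0.0304 in the Itln1 window, and H3K36me3 -0.0349 to 0.0047 in the first window. The H3K9me3 interaction gave -0.0666 to 0.0589 in the first window and -0.152 to 0.0076 in the Hjurp window. For input they were -0.0145 to 0.0583, -0.0568 to 0.0833 and -0.0438 to 0.0495 in males, -0.106 to 0.0185 in the Itln1 window in females, and -0.0515 to 0.0049 in the first window and -0.0522 to 0.0173 in the Itln1 window by sex. DESeq2 and no filter turned no direction at the named regions. DESeq2 also put the Itln1 lead region for H3K36me3 in females and the H3K36me3 interactions of the first window and Itln1 lead regions past the unadjusted threshold.

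Depth is known inside islands alone, and reads with more than 1 location were dropped for H3K9me3, which bears most on the first window. Island boundaries differ between libraries. The part of copy number in a density above 1 was not tested. Adjusted thresholds were passed by no window region.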
